A study of Mus musculus with 2 samples.

Results

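The guanylate-binding proteins (GBPs) and the immunity-related GTPases (IRGs) are interferon-induced GTPases that act inside cells, and 10 of them were described here by their symbols among the 32285 features of the files: Gbp2, Gbp3, Gbp4, Gbp5, Gbp7, Irgm1, Irgm2, Igtp, Iigp1 and Tgtp1. All 10 were found. They were followed across 9 classes of cells from MC38 tumors, MC38 being a mouse colon carcinoma line grown under the skin of C57BL/6 mice, for which the methods on tumor models give an age of 6 to 8 weeks. The study compared 1 library of untreated tumors with 1 library of tumors injected with MSA-2, a small-molecule agonist of STING. STING is the adaptor that turns cytosolic DNA sensing into interferon production. Injections went into the tumor 3 times at intervals of 3 days, tumors were collected on day 7, and each library pooled the tumors of 3 mice. The label of the control reads untreated, whereas the methods call these tumors saline treated and the series record names a vehicle of saline with DMSO. The methods say that cells were sorted, name no gate and call all barcodes of both libraries immune cells, whereas the gates used here placed 50.6% and 54.9% of the kept cells in a tumor-like class. Since each group is a single pooled library, how far tumors of a group differ is not known and the groups were not tested against each other. Each interval given below is an exact 95% interval that covers counting error only.

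Both families are large in the mouse and are induced most strongly by interferon gamma, which binds its receptor, activates the kinases Jak1 and Jak2, and raises Irf1. Type I interferons induce them as well. GBPs assemble on the membranes of vacuoles and bacteria inside a cell and open them to caspase-11 and the inflammasomes. IRGs are split by role: Iigp1 and Tgtp1 are effectors that load onto vacuoles, whereas Irgm1, Irgm2 and Igtp are regulators that guard the cell's own membranes against the effectors. The autophagy conjugation proteins help to place both families on their targets.

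Of the 10 genes, 8 lie on chromosomes 3 and 11, and Gbp4 and Iigp1 lie on chromosomes of their own. In the GRCm38.p6 assembly, Gbp5 (ENSMUSG00000105504, chr3:142496934-142522344), Gbp7 (chr3:142530336-142550151), Gbp3 (chr3:142560016-142573213) and Gbp2 (ENSMUSG00000028270, chr3:142620663-142638008) are neighbors on chromosome 3. Gbp4 is on chromosome 5 (chr5:105115767-105139586). Irgm1 (chr11:48865245-48871420), Tgtp1 (chr11:48985329-48992246), Igtp (chr11:58199556-58207592) and Irgm2 (chr11:58214977-58222783) share chromosome 11. Of the 10 genes, 8 have a promoter entry in the RefSeq table of this assembly. The 250 bases before the transcription start of each were searched for the core letters of 2 interferon elements. GAAA, any 2 bases and GAAA, or the reverse complement of that, was taken as ISRE-like (interferon-stimulated response element), and the palindrome TTCNNNGAA as GAS-like (gamma-activated sequence). An ISRE-like match was found in all 8 genes, against 2.98% of the 32851 promoters of the table. A GAS-like match was found in 5 of the 8, against 7.02% of all promoters, and both together in 5 against 0.332%. These are matches of letters and no measure of binding.

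The stretches before the start are printed for 7 genes, 5′ to 3′ on the strand of the gene, with the matches in capitals, because the ISRE-like match is common to the 8 genes searched and the choice of genes did not use it. Gbp5 (chr3:142496684-142496933, plus strand) is given for 250 bases and carries its ISRE-like match 165 bases before the start, with GAS-like matches 245 and 52 bases before it. Gbp2 (chr3:142620543-142620662, plus) and Gbp7 (chr3:142530216-142530335, plus) are given for 120 bases, as are Irgm1 (chr11:48871421-48871540, minus), Irgm2 (chr11:58214857-58214976, plus), Igtp (chr11:58199436-58199555, plus) and Tgtp1 (chr11:48992247-48992366, minus).
Gbp5: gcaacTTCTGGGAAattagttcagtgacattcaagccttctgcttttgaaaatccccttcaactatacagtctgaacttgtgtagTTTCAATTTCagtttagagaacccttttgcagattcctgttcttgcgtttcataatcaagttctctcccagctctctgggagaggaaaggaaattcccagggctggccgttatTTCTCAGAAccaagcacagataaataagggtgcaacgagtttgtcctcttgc
Gbp2: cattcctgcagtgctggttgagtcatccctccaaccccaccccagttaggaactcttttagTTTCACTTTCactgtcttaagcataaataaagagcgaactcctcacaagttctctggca
Gbp7: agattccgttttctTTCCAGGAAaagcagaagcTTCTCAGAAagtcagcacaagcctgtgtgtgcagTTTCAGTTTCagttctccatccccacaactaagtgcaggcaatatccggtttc
Irgm1: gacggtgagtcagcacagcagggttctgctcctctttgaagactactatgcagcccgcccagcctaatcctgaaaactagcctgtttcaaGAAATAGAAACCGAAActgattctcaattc
Irgm2: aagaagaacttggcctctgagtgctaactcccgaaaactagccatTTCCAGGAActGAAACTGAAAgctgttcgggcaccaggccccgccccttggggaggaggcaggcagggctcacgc
Igtp: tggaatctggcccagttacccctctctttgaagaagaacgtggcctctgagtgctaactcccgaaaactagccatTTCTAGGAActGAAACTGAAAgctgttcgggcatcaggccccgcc
Tgtp1: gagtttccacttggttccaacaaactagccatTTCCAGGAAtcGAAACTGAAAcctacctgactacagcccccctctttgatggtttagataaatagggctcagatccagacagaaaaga
In Irgm2, Igtp and Tgtp1 a GAS-like match stands 2 bases before an ISRE-like match of the same letters, GAAACTGAAA. Gbp2 and Irgm1 hold ISRE-like matches only, overlapping in Irgm1, and Gbp3 holds overlapping ones that begin 45 and 39 bases before the start.

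Cells were assigned to classes by gates on marker genes, so that macrophages, for example, stands for macrophage-like cells throughout. After a filter on genes and mitochondrial UMIs and removal of doublets, 13334 of 14386 untreated barcodes and 13393 of 14617 MSA-2 barcodes were kept, with 183355500 and 191888910 UMIs, and 53 barcode sequences occurred in both libraries. The largest class, tumor-like cells (6744 untreated and 7356 MSA-2 cells), rested on Gng11, Ccn1 and Anxa1 alone, and its gate separated it weakly from stromal cells. The list of tumor markers summed to 3005 and 3544 CPM in tumor-like cells, to 2171 and 1673 CPM in fibroblasts and to 2158 and 2140.2 CPM in endothelial cells, untreated first. Fibroblast markers summed to 1869 and 2482 CPM in tumor-like cells, with 7 and 6 of 8 at 10 CPM or more, and to 48285 and 30903 CPM in fibroblasts. The epithelial markers of its list were at or near 0, with Epcam at 0.26 and 0.04 CPM (counts of the gene scaled to all counts of the class) and Krt8 at 0.15 and 0.25 CPM. The labels call the cells tumor cells, yet the gates also held 3926 and 1256 macrophages, 208 and 573 fibroblasts, 1189 and 145 T cells, 144 and 394 Ly6c2 monocytes, 147 and 83 NK cells and 59 and 71 endothelial cells, untreated first. The neutrophil gate held 34 untreated against 2691 MSA-2 cells. The dendritic cell gate held 220 against 16, and 14 of those 16 were mature dendritic cells, against 70 of 220. Ratios in these last classes rest on few cells in 1 of the libraries.

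A level is the UMIs of a gene in all cells of a class scaled to the UMIs of those cells, in CPM, and a ratio is the log2 of the MSA-2 level divided by the untreated level. A gene was counted as higher when it was at least 2-fold higher and had at least 10 UMIs in both libraries together. For each member the tumor-like cells held most of the UMIs. Their part was 89.99% for Gbp2 in the untreated library, where these cells held 80.3% of all UMIs, and 81.0% after MSA-2, where they held 86.0%. For Gbp5 it was 61.0% and 55.7%, the lowest among the 10 genes in both libraries. Neutrophils held 2.94% of all UMIs after MSA-2 but 9.2% of those of Gbp2 and 10.4% of those of Gbp5, and fibroblasts with 4.31% of all UMIs held 11.8% of those of Iigp1.

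**Figure D1:**
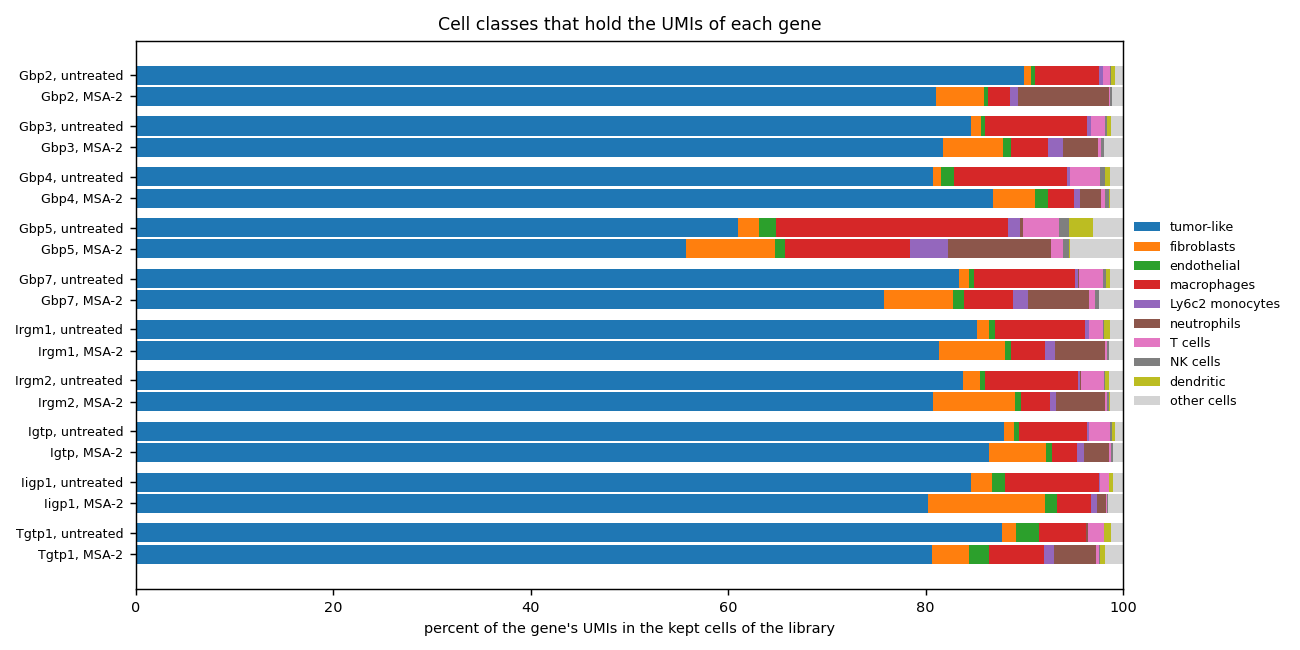
Percent of each gene's UMIs (x axis) that lay in each cell class, for the untreated and the MSA-2 library; bars add to 100. Tumor-like cells held from 55.7% (Gbp5 after MSA-2) to 89.99% (Gbp2, untreated), and neutrophils appear as a visible part only after MSA-2.

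Gbp5, a GBP known for its part in inflammasome assembly, had the highest median log2 ratio over the classes, 3.12. Its level in tumor-like cells was 13.2 CPM without and 88.7 CPM with MSA-2, and in fibroblasts 25.7 and 287 CPM. Macrophages had 33.6 and 536 CPM and T cells 25.4 and 419 CPM. It was at least 2-fold higher in 9 of 9 classes, the only member of which that held. The log2 ratio was 4.04 (3.73 to 4.37) in T cells, 3.995 (3.88 to 4.11) in macrophages, 3.48 (3.13 to 3.86) in fibroblasts, 3.22 (2.75 to 3.74) in Ly6c2 monocytes and 2.75 (2.68 to 2.82) in tumor-like cells. Endothelial cells were at 101 and 310.3 CPM, a log2 ratio of 1.62 (1.19 to 2.07). Neutrophils showed the smallest ratio, 1.19 (0.31 to 2.26), from 10 untreated UMIs, and it turned to -0.91 under a stricter cell filter.

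The order of the classes for Gbp5 differed between the libraries. Among untreated cells tumor-like cells were lowest, below the interval of T cells (20.97 to 30.4 CPM), and the other 8 classes overlapped their neighbors in the order. After MSA-2, Ly6c2 monocytes (599.9 CPM, 564 to 638) stood above macrophages (536 CPM, 518 to 555), and these above neutrophils (486 CPM). Then came T, dendritic and endothelial cells and fibroblasts, each overlapping the class just above it in the order. NK cells (227 CPM) and tumor-like cells (88.7 CPM) were lowest.

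Gbp2, a GBP that coats bacterial and vacuolar membranes, did not follow Gbp5. Tumor-like cells had 397 CPM untreated and 331 CPM after MSA-2, a log2 ratio of -0.26 (-0.28 to -0.24), and 424 and 296 CPM in Ly6c2 monocytes, a log2 ratio of -0.52 (-0.74 to -0.29). Both ratios kept their sign under every alternative tried, from -0.34 to -0.24 and from -0.58 to -0.28. Fibroblasts were at 168 and 397 CPM, a log2 ratio of 1.24 (1.09 to 1.39), which was 0.07 with a looser gate. In macrophages Gbp2 was at 190.4 and 238 CPM, 0.33 (0.24 to 0.41) on the log2 scale, and in T cells at 100.2 and 159 CPM, 0.66 (0.36 to 0.96), which became -0.06 when doublets were kept. NK cells gave 0.77 (0.29 to 1.24), which became -0.02 with the looser gate. Endothelial cells gave -0.13 (-0.37 to 0.10), with the sign turned by TMM scaling and by equal weight per cell. Over all cells the level of Gbp2 was 354 and 352 CPM, a log2 ratio of -0.01 (-0.03 to 0.01). Neutrophils had the highest level after MSA-2, 1103 CPM, with an interval (1076 to 1131) above that of every other class, while endothelial cells (432 CPM) and fibroblasts (397 CPM) overlapped as the next in order.

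**Figure D2:**
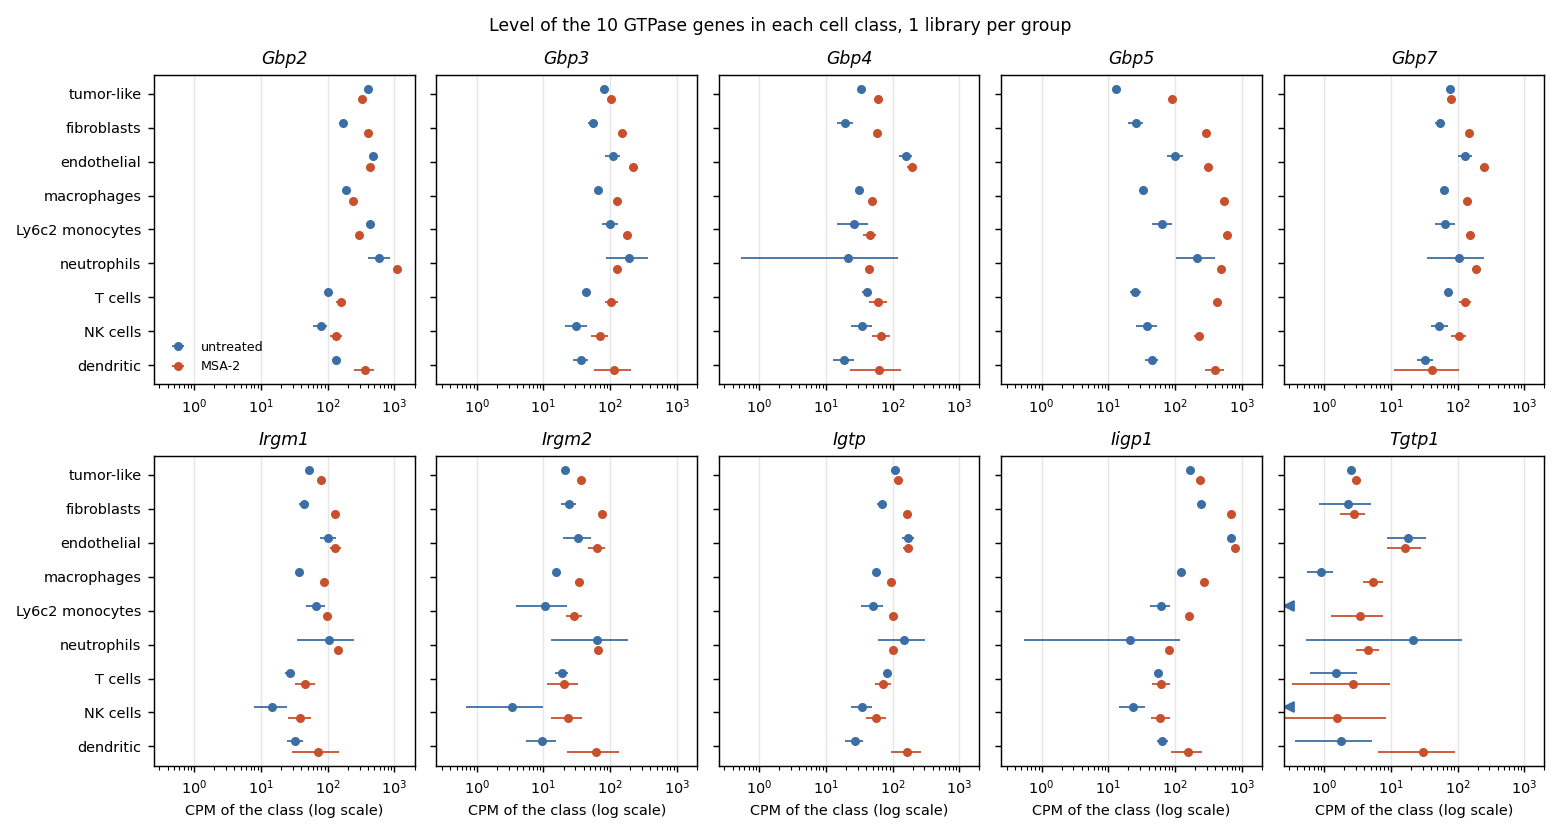
Level of each gene in CPM (log scale) in 9 cell classes of the untreated and the MSA-2 library; bars are exact 95% Poisson intervals and arrowheads at the left edge mark 0 UMIs. Gbp5 is higher after MSA-2 in each class, while Gbp2 is lower in tumor-like cells (397 and 331 CPM) and Ly6c2 monocytes (424 and 296 CPM).

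Among the other GBPs, Gbp3 was at 55.2 and 152 CPM in fibroblasts, a log2 ratio of 1.47 (1.22 to 1.72), and at 81.7 and 103 CPM in tumor-like cells, 0.33 (0.29 to 0.36). Gbp4 was at 34.0 and 60.4 CPM in tumor-like cells, a log2 ratio of 0.83 (0.78 to 0.88), and at 156 and 195 CPM in endothelial cells, 0.32 (-0.07 to 0.72). Gbp7 differed between classes. It was at 77.5 and 79.0 CPM in tumor-like cells, a log2 ratio of 0.03 (-0.01 to 0.06) whose sign turned with TMM scaling, and at 55.2 and 147 CPM in fibroblasts, 1.41 (1.16 to 1.67). In macrophages Gbp7 was at 62.9 and 137 CPM, 1.12 (0.9999 to 1.25).

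Among the regulators, Irgm1 was at 52.3 and 78.8 CPM in tumor-like cells, a log2 ratio of 0.59 (0.55 to 0.63). Its ratio was 1.52 (1.25 to 1.81) in fibroblasts and 1.26 (1.10 to 1.41) in macrophages. Irgm2 was at 20.8 and 36.2 CPM in tumor-like cells, 0.80 (0.74 to 0.86), and at 24.2 and 74.5 CPM in fibroblasts, 1.63 (1.25 to 2.02). Igtp, the neighbor of Irgm2, was at 107 and 121 CPM in tumor-like cells, 0.18 (0.15 to 0.21), and at 68.2 and 163 CPM in fibroblasts, 1.25 (1.03 to 1.49). Igtp in T cells gave -0.22 (-0.66 to 0.20), an interval that holds 0. For Irgm1, Irgm2 and Igtp the interval in fibroblasts lay above that in tumor-like cells. With looser gates the order held with smaller gaps, at 0.34 and 0.19 for Igtp.

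The effector Iigp1 was highest in endothelial cells, at 679.6 and 786 CPM with a log2 ratio of 0.21 (0.02 to 0.40), and next in fibroblasts, at 242 and 699.7 CPM with a ratio of 1.53 (1.42 to 1.66). Its level in tumor-like cells was 167 and 237 CPM, 0.51 (0.49 to 0.53), and in macrophages 124 and 269 CPM, 1.12 (1.03 to 1.20). T cells were at 55.8 and 62.4 CPM, 0.16 (-0.33 to 0.62). The intervals of endothelial cells and fibroblasts stayed apart from each other and from the other classes in both libraries. The effector Tgtp1 gave few UMIs, 426 and 614 over all cells. Of the 90-base windows in the last 500 bases of its transcripts, 74.0% also occur in transcripts of other genes, its copy Tgtp2 among them, so its counts are uncertain. For the other members that share was at most 8.22% (Gbp4). Tgtp1 was at 2.54 and 3.00 CPM in tumor-like cells, a log2 ratio of 0.24 (0.04 to 0.44), and at 0.896 and 5.47 CPM in macrophages, 2.61 (1.77 to 3.48).

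**Figure D3:**
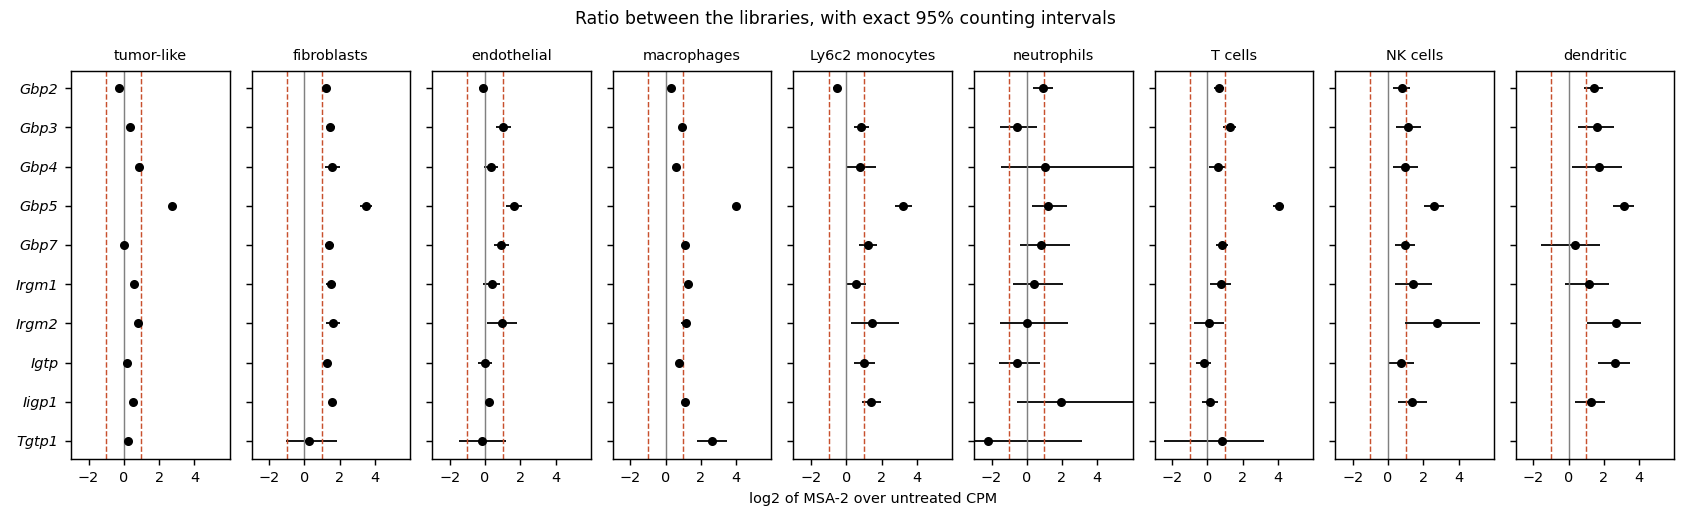
Log2 ratio of MSA-2 over untreated CPM for each gene in 9 cell classes, with exact 95% counting intervals. Dashed lines mark 2-fold, and the intervals of Gbp4, Iigp1 and Tgtp1 in neutrophils run past the axis. Gbp5 lies to the right of the 2-fold line in each class (in neutrophils it was -0.91 under a stricter cell filter), and fibroblasts show 9 of 10 genes past it (4 with gate thresholds halved).

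Counted by class, fibroblasts had 9 of 10 members at least 2-fold higher, against 8.61% of all genes tested in that class, with Tgtp1 the exception (6 and 23 UMIs), and 4 of 10 with gate thresholds halved. Macrophages had 6 of 10, against 9.48%, and Ly6c2 monocytes 5 of the 9 with enough UMIs, against 13.2%. NK cells had 5 of 9, against 9.09%, a count that was 2 with gate thresholds doubled, 3 with them halved and 3 with a floor of 50 UMIs. T cells had 2 of 9, Gbp3 and Gbp5, against 7.45%, and 1 when doublets were kept. Tumor-like cells had 1 of 10, Gbp5, against 13.6%, a share near that of all genes. A ratio above 0 was found for 9 of 10 members and for 11176 of 19927 genes tested in these cells. Endothelial cells had 2 of 10, against 7.68%, a count that was 1 with gate thresholds halved and 4 with TMM scaling. Dendritic cells had 8 of 9, against 15.2%, and neutrophils 3 of 10, against 3.23%, 2 of which (Gbp4 and Iigp1) rested on a single untreated UMI. The neutrophil count was 1 with the stricter cell filter or doubled gate thresholds and 7 with TMM scaling. In neutrophils Tgtp1, also with 1 untreated UMI, was at -2.20 (-4.81 to 3.15), and 26.7% of all genes were at least 2-fold lower there. In each of the other classes 0 members were at least 2-fold lower. The share of all genes that was lower by that much was 6.61% in tumor-like cells, 9.99% in fibroblasts, 9.8% in endothelial cells, 8.27% in macrophages, 11.8% in Ly6c2 monocytes, 11% in T cells, 9.27% in NK cells and 10.5% in dendritic cells. Over all cells, 1 of 10 members, Gbp5, was at least 2-fold higher, against 12.5%, and 0 were lower, against 9.13%.

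The median log2 ratio of the members was 1.49 in fibroblasts, beside -0.17 for all genes tested, and 1.12 in macrophages, beside -0.13. It was 0.66 in T cells, beside -0.13, 0.42 in tumor-like cells, beside 0.08, and 0.34 in endothelial cells, beside -0.16. Summed over the 10 members, tumor-like cells held 953 and 1138 CPM, a log2 ratio of 0.26 (0.25 to 0.27), and 0.54 without Gbp2. Fibroblasts held 705 and 2109.8 CPM, 1.58 (1.51 to 1.65), macrophages 617 and 1577 CPM, 1.35 (1.32 to 1.39), and T cells 469.9 and 1078 CPM, 1.20 (1.08 to 1.32). Endothelial cells had the highest sum in both libraries, 1971 and 2575 CPM, 0.39 (0.28 to 0.49), though untreated neutrophils overlapped them. By this sum tumor-like cells ranked 3 of 9 among untreated cells and 7 of 9 after MSA-2, where the interval of T cells (1004 to 1155 CPM) held their value. The fibroblast value depended on the gate. With gate thresholds halved the ratio of the sum was 0.76, and 4 members were at least 2-fold higher (Gbp5, Irgm1, Irgm2 and Iigp1), while Gbp3 was at 0.53, Gbp4 at 0.75, Gbp7 at 0.57 and Igtp at 0.34.

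Lineage markers give a scale for RNA carried over from other cells. The complement genes C1qa, C1qb and C1qc, which define macrophages, were in MSA-2 tumor-like cells at 0.75% of their level in macrophages, and S100a8 and S100a9, which define neutrophils, at 0.49% of their level in neutrophils. At those rates 4.02 and 2.37 of the 88.7 CPM of Gbp5 in tumor-like cells would be carried over from macrophages and neutrophils. In MSA-2 T cells the same reckoning gave 4.14 and 3.24 of 419 CPM. Carry-over from tumor-like cells and fibroblasts was not reckoned. Tumor markers summed to 467 and 484 CPM in T cells, beside 3005 and 3544 CPM in tumor-like cells, untreated first. The summed markers differed between the libraries, and their part in the results was not tested. The 11 neutrophil markers summed to 9.67 and 484 CPM in tumor-like cells and to 52.9 and 687 CPM in T cells. The 10 macrophage markers summed to 739 and 216 CPM in tumor-like cells and to 1054 and 244 CPM in T cells. Fibroblast markers in T cells summed to 385 and 919 CPM, and the T cell markers there to 4556 and 2955 CPM. In fibroblasts the neutrophil markers summed to 34.5 and 529 CPM, the macrophage markers to 966 and 275 CPM and the Ly6c2 monocyte markers to 1452 and 4861 CPM, while fibroblast markers were lower after MSA-2 as given above. In macrophages their own markers summed to 40167 and 29517 CPM, the neutrophil markers to 175 and 1107 CPM and the Ly6c2 monocyte markers to 571 and 1476 CPM. In Ly6c2 monocytes the neutrophil markers summed to 628 and 3065 CPM and the macrophage markers to 5017 and 2489 CPM. In NK cells the neutrophil markers summed to 8.94 and 569 CPM, the macrophage markers to 825 and 224 CPM and the fibroblast markers to 301 and 978 CPM. In endothelial cells the neutrophil markers summed to 7.35 and 608 CPM, the Ly6c2 monocyte markers to 79.0 and 305 CPM and their own markers to 6927 and 5174 CPM. For dendritic cells the neutrophil markers summed to 352 and 1356 CPM and the macrophage markers to 1263 and 226 CPM. Markers of type 2 conventional dendritic cells summed there to 1284 and 277 CPM, and those of mature dendritic cells to 1681 and 2969 CPM.

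The spread over single cells was described in tumor-like cells thinned to 10000 UMIs each, which left 5427 untreated and 5865 MSA-2 cells. No share from free RNA was measured at this depth, so the values describe the libraries and are not read as expression cell by cell. Gbp2 had a mean of 4.26 and 3.45 UMIs and Gbp5 of 0.14 and 0.96. The ratio of variance to mean was 4.80 and 3.14 for Gbp2, 6.44 and 4.48 for Iigp1, and 1.93 and 5.13 for Gbp5. For the sum of the 10 members, the 10th percentile was 2 and 4 UMIs, the median 7 and 10, and the 90th percentile 22 and 23. The 2 libraries differed more at the 10th percentile and the median than at the 90th. Between members, Spearman's rho over these cells ranged from 0.06 to 0.42 without and from 0.04 to 0.35 with MSA-2, highest in both for Gbp2 with Iigp1. These are sparse counts from 1 library each, and the values are given as a description.

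To compare classes of unlike depth, each cell was thinned to 1500 UMIs. At least 1 member was then found in 67.3% (66.1 to 68.4) of untreated and 74.8% (73.7 to 75.8) of MSA-2 tumor-like cells, 97.8% and 99.3% without thinning. In fibroblasts the shares were 51.2% (44.2 to 58.2) and 88.4% (85.5 to 90.9) and in macrophages 49.3% (47.7 to 50.9) and 81.0% (78.6 to 83.2), where the values without thinning were 93.3% and 99.1%, and 81.3% and 93.7%. T cells had 43.3% (40.4 to 46.2) and 67.4% (58.9 to 75.1), 67.5% and 92.4% without thinning. At least 3 of the 10 members were found in 8.21% and 39.8% of fibroblasts and in 4.73% and 23.4% of macrophages. For tumor-like cells the shares were 14.3% and 20.6%. Thinning left out 743 of 2691 MSA-2 and 26 of 34 untreated neutrophils, so no comparison is made for them. No class is known to lack these genes. As a scale for free RNA, C1qa was found in 18.6% of untreated and 6.24% of MSA-2 tumor-like cells and S100a9 in 0.14% and 24.7%, at median depths before thinning of 20031.5 and 19589 UMIs. The share of tumor-like cells with Gbp5, 2.62% and 13.3%, was above that of S100a9 in the untreated library and below it after MSA-2, and below that of C1qa in the untreated library. The comparison there rests on the levels in CPM and not on this share.

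**Figure D4:**
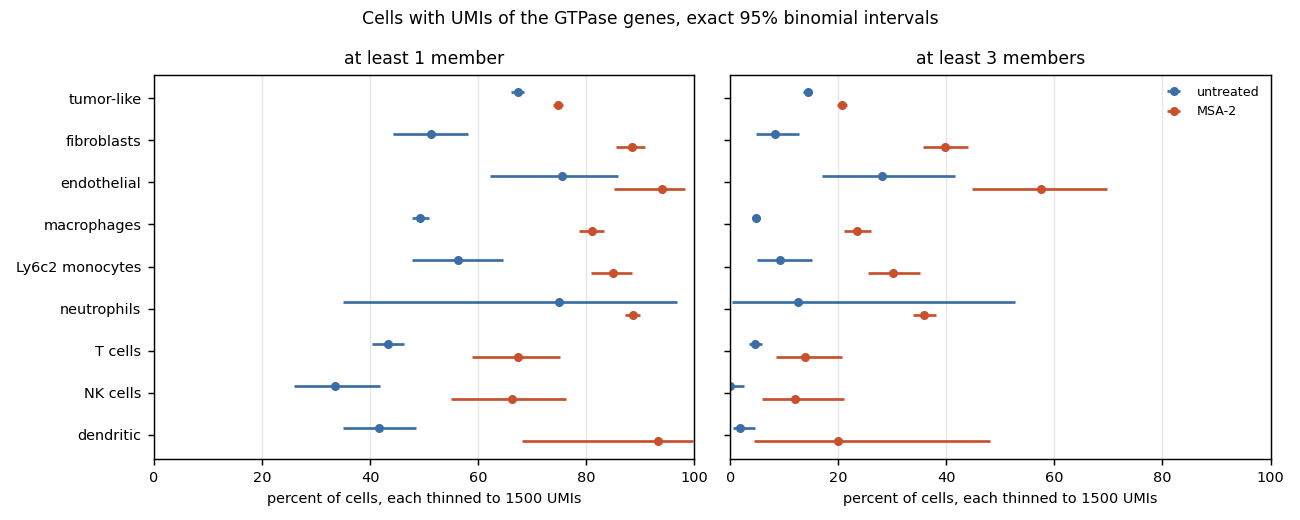
Percent of cells, each thinned to 1500 UMIs, with UMIs of at least 1 (left) or at least 3 (right) of the 10 genes, with exact 95% binomial intervals. In fibroblasts the share with at least 3 was 8.21% without and 39.8% with MSA-2, while in tumor-like cells it was 14.3% and 20.6%.

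Genes with a known place around the members were compared as lists. Of 12 other GBP and IRG genes in the files, 7 of 11 with enough UMIs were at least 2-fold higher in fibroblasts, against 8.61% of all genes. In tumor-like cells 1 of 12 was lower, Gbp2b, against 6.61%, and 1 was higher, against 13.6%. The higher one was Gm4951, at 66.3 and 165 CPM with a log2 ratio of 1.32 (1.28 to 1.35). In fibroblasts Gbp6 was at 31.8 and 106 CPM and Ifi47, an IRG of the effector kind, at 48.7 and 137 CPM. In macrophages 3 of 12 were at least 2-fold higher (Gbp6, Tgtp2 and Gm4951), against 9.48%, and the median log2 ratio of the list was 0.65. Gbp2b was lower there, at 16.9 and 1.45 CPM, a log2 ratio of -3.54 (-4.68 to -2.60). It was the 1 of 12 at least 2-fold lower in that class, against 8.27% of all genes.

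The interferon gamma relay runs from the cytokine to Irf1. Of 9 genes, 1 was higher in tumor-like cells (Jak2, at 28.3 and 57.5 CPM), against 13.6% of all genes, 0 in macrophages, against 9.48%, 1 in fibroblasts, against 8.61%, 1 in T cells, against 7.45%, and 2 in NK cells, against 9.09%. At least 2-fold lower were 1 of 9 in tumor-like cells and fibroblasts (Irf8, an interferon-regulated transcription factor, at 10.9 and 3.19 CPM in tumor-like cells). Macrophage markers were also lower after MSA-2 in both, at 739 and 216 CPM in tumor-like cells and 966 and 275 CPM in fibroblasts. Carry-over of Irf8 was not reckoned, and its part was not tested. Relay genes that much lower were also 1 of 9 in macrophages (Ifngr2, a receptor chain, at 118 and 56.3 CPM) and 1 of 8 in endothelial cells. The counts were 3 of 8 in Ly6c2 monocytes, 3 of 9 in neutrophils and 0 of 9 in T cells. The shares of all genes that much lower ran from 6.61% (tumor-like cells) to 26.7% (neutrophils). Ifng, the cytokine itself, was the relay gene at least 2-fold higher in T cells. It was at 723 and 3144 CPM there, a log2 ratio of 2.12 (2.04 to 2.20), and at 493 and 1677 CPM in NK cells. Over all cells, of which T cells were 1189 untreated and 145 after MSA-2, its level was 25.01 and 22.9 CPM. Irf1 was at 231 and 305 CPM in tumor-like cells and at 134 and 206 CPM in macrophages.

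Other genes known to answer interferon gamma differed in both directions. In macrophages, 3 of 9 were at least 2-fold higher, against 9.48% of all genes, and 5 lower, against 8.27%. The genes of MHC class II presentation were the lower ones, with H2-Aa at 3743 and 458 CPM, a log2 ratio of -3.03 (-3.09 to -2.98), Cd74 at 8557 and 1224 CPM, and Ciita, their master regulator, at 24.97 and 1.93 CPM. Cd274, which encodes PD-L1, was at 331 and 745 CPM, a log2 ratio of 1.17 (1.12 to 1.22), and Nos2, the inducible nitric oxide synthase, at 11.6 and 92.4 CPM, 3.00 (2.78 to 3.22). The remaining higher gene, Ido1, rested on 6 and 4 UMIs, with an interval from -1.01 to 3.34. Cxcl9 was at 423 and 1999 CPM in fibroblasts but at 469 and 355 CPM in macrophages.

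Type I interferon response genes were higher nearly throughout. Of 10, all were at least 2-fold higher in fibroblasts, macrophages and T cells (against 8.61%, 9.48% and 7.45% of all genes) and 9 in tumor-like cells (against 13.6%), where Isg15 (263 and 502 CPM, 0.93 on the log2 scale) fell short. Rsad2 was at 205 and 1049 CPM in tumor-like cells, 2.36 (2.34 to 2.37), and at 169 and 2231 CPM in fibroblasts, 3.73 (3.59 to 3.87). The median of this list was 1.95 in tumor-like cells, beside 0.42 for the members, and 3.36 beside 1.49 in fibroblasts. Among the 10 members Gbp5 alone had a ratio in tumor-like cells (2.75) above the median of that list.

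Of the machinery that the GTPases act with, autophagy conjugation genes had 0 of 10 at least 2-fold higher in tumor-like cells, fibroblasts, macrophages and T cells, against 13.6%, 8.61%, 9.48% and 7.45% of all genes, with medians of -0.09, -0.34, -0.11 and -0.47. Map1lc3b, an LC3 gene, was at 240.3 and 134 CPM in tumor-like cells, -0.84 (-0.87 to -0.82), against a median of 0.08 for all genes. Casp4, which encodes caspase-11, was at 33.6 and 77.6 CPM in tumor-like cells, a log2 ratio of 1.21 (1.16 to 1.26). It was 1 of 2 genes of 8 at least 2-fold higher there, against 13.6% of all genes, the other being Nlrp3 (4.60 and 12.1 CPM), and 1 of 8, Casp1, was at least 2-fold lower, against 6.61%.

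**Figure D5:**
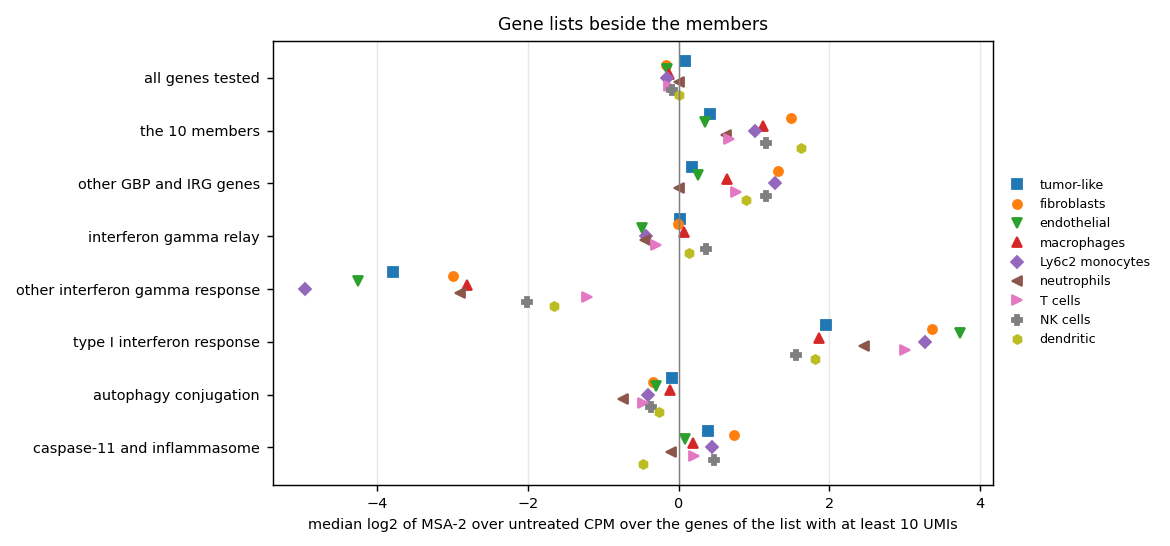
Median log2 ratio of MSA-2 over untreated CPM (x axis) for all genes tested, the 10 members and 6 lists (y axis), 1 symbol per cell class. The members lie from 0.34 (endothelial cells) to 1.63 (dendritic cells), between all genes and the type I interferon list. The median of the other interferon gamma response list lies below 0 in each class. Of that list, 3 of 9 genes were at least 2-fold higher and 5 lower in tumor-like cells, against 13.6% and 6.61% of all genes. In macrophages 3 and 5 of 9 were, against 9.48% and 8.27%, and in fibroblasts 3 and 4 of 7, against 8.61% and 9.99%. Macrophage markers in tumor-like cells summed to 739 and 216 CPM, untreated first. Carry-over was not reckoned for this list, and its part in these medians was not tested.

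Over 14 points, the 7 classes with at least 50 cells in each library taken in both libraries, the log2 level of Irgm1 followed that of the summed members most closely (Pearson r of 0.97) and Gbp3 next (0.95), while Gbp4 (0.67) and Gbp5 (0.68) followed it least. The lowest pairwise value was that of Gbp2 with Gbp5 (0.23) and the highest that of Gbp3 with Irgm1 (0.94). Among 6316 genes with at least 50 CPM in any point, the non-members most like the sum were Phf11d (0.92), Car13 (0.90), Clic4 (0.89), Dtx3l (0.88), Il15 (0.88), Timm10b (0.88), Bst2 (0.87), Nfkbia (0.87), Gm4951 (0.87) and Xaf1 (0.84). The points share libraries and differ in depth, and the values are a description of these classes.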

How the data were processed

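The data are 2 single-cell RNA-seq libraries, 1 per group. The deposited values are UMI counts for each gene in each barcode, not normalized, which the authors made with Cell Ranger on 10x 3′ v3.1 libraries; the processing notes name version 7.0.0, Seurat 4.3.0 and mm10, the file headers 7.0.1, and the methods another version. The cell filter asked for 500 genes or more and for 20% mitochondrial UMIs or less, and doublets called by Scrublet (scanpy 1.11.5, expected rate 0.8% per 1000 cells) were removed, 705 untreated and 570 MSA-2. Of the deposited barcodes, totals were 198135335 and 204387165 UMIs.

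Cells were gated on the share of their UMIs from marker genes and on the number of markers detected, and the best gate had to exceed the next 2-fold. The gate thresholds were set after the marker levels had been seen. The members and the gene lists were chosen with earlier results of these data known. Named genes are the members, genes of the lists, and the 10 non-members most like the summed members in log2 of CPM plus 10. A count of 0 was set to 3 counts where that gave a bound, and medians use such bounds. Intervals are exact at 95% (conditional binomial for ratios, Poisson for sums, Clopper-Pearson for shares). With 1 library per group no p-value was computed. The calculation of the ratios was checked on Poisson counts simulated from the T cell sums. That check does not cover spread between cells or tumors. Python 3.11.15, numpy 2.4.6, scipy 1.17.1, pandas 2.3.3, edgeR 4.0.16 (TMM factors only) and matplotlib 3.10.9 were used. Promoters and positions come from RefSeq GRCm38.p6, and transcript ends from GENCODE M21.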

Additional observations from a re-analysis of the deposited data

Results flagged for a closer look

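Gbp2 was the only member with counting intervals on both sides of 0 in different cell classes, although Gbp3, Igtp and Tgtp1 also had ratios of both signs. Between the libraries its log2 ratio was -0.2609 in tumor-like cells and -0.5162 in Ly6c2 monocytes, with intervals below 0, while they lay above 0 in 6 other classes. The difference between classes was not tested, since each group is 1 library.
The value in T cells turned to -0.06 when doublets were kept, and that in NK cells to -0.02 with looser gates.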

How the results depend on the processing

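Of 597 ratios of single members under 7 alternatives, 579 kept their sign, 18 did not, and 41 moved across 2-fold. With a stricter cell filter (1000 genes or more, 10% mitochondrial UMIs or less) the neutrophil sum was -0.07329, Gbp5 there -0.908, and 1 member was 2-fold higher. With doublets kept, sums were 1.146 in macrophages and 0.7578 in T cells, Gbp2 in T cells was -0.05803, and 1 member was higher in T cells. With gate thresholds doubled, sums were 0.2747 in tumor-like cells and 1.833 in fibroblasts, and 1 member was higher in neutrophils and 2 in NK cells. With them halved, sums were 0.7602 in fibroblasts, 1.243 in macrophages, 1.051 in T, 0.7865 in NK and 2.294 in dendritic cells, Gbp2 in NK cells was -0.01844, and 4 members were higher in fibroblasts, 1 in endothelial and 3 in NK cells. With TMM factors, sums were 0.1776 in tumor-like cells, 1.809 in fibroblasts, 0.5638 in endothelial cells, 1.402 in macrophages, 1.182 in Ly6c2 monocytes, 1.654 in neutrophils and 1.542 in dendritic cells, and 4 members were higher in endothelial cells and 7 in neutrophils. With equal weight per cell, sums were 0.3009 in tumor-like, 0.6398 in endothelial cells, 1.422 in macrophages and 1.326 in T cells. With a floor of 50 UMIs, 3 members were higher in NK cells. Sums without Gbp2 were 0.5381 in tumor-like cells, 1.675 in fibroblasts, 0.5173 in endothelial cells, 1.65 in macrophages and 1.63 in Ly6c2 monocytes. That alternative and leaving out the shared barcodes were chosen after seeing the data. Differences in the share of cells with a member, thinned to 1000 UMIs, were 9.658 points in tumor-like cells, 28.75 in macrophages and 15.95 in NK cells. Without thinning they were 1.53 in tumor-like cells, 5.858 in fibroblasts, 12.41 in macrophages, 15.2 in Ly6c2 monocytes, 17.63 in NK and 21.36 in dendritic cells. The cause of these changes was not tested.

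No paired analysis was possible because each group is 1 library, and no replicate could be left out. Depth limits neutrophils (34 untreated cells) and dendritic cells (16 after MSA-2) most.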
